A study of Mus musculus with 6 samples.

Results

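Amino acids enter and leave cells, and move in and out of lysosomes, through carriers of several solute carrier (Slc) gene families. Here the genes of families 1, 3, 6, 7, 36, 38 and 43 were followed in aortic endothelial cells of mice infused with angiotensin II (AngII) or saline. The members were chosen by symbol, as every gene of those families in the deposited count table with at least 1 count in 3 or more samples. This gave 38 of 17067 genes. A further 9 matching symbols had no more than 1 count in any sample and in no more than 2 samples, among them Slc7a8 and Slc1a3, while the members nearest to this limit, Slc6a2 and Slc6a18, had counts in 3 samples.

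The AngII samples (n = 3) came from wild-type C57BL/6 mice, 8 weeks old, given the hormone AngII from a pump under the skin at 1000 ng/kg/min over 14 days, and the saline samples (n = 3) from sham-operated mice of the same strain, age and genotype with 0.9% saline in the pump. AngII narrows vessels and raises blood pressure. In both groups pieces of aorta 2 mm long were then kept on Matrigel, in medium that held 20% fetal calf serum with heparin and endothelial growth factor. Endothelial cells grew out of the pieces after 5 to 7 days, so the cells spent time in culture medium, which itself supplies amino acids, between the infusion and the RNA extraction. The labels do not say whether a sample is 1 mouse, a pool or a separate culture, so a p-value speaks of the spread among the 3 samples of a group, and that spread may be technical.

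Most amino acid carriers exchange one amino acid for another or use the sodium or proton gradient to concentrate their substrate. Several SLC7 proteins are light chains that reach the plasma membrane only when bound to a heavy chain of the SLC3 family, such as the CD98 heavy chain encoded by Slc3a2. Many carrier genes are induced when amino acids run short or protein folding in the endoplasmic reticulum is disturbed: phosphorylation of the translation factor eIF2 raises translation of the transcription factor ATF4, which binds C/EBP-ATF elements in DNA, also called amino acid response elements. In endothelial cells the arginine carrier encoded by Slc7a1 supplies the substrate of nitric oxide synthase.

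The rises below include Slc7a11 and Slc1a4, and of 26 members with an entry in the RefSeq promoter table (GRCm38.p6, 250 bases before to 50 after each annotated start site), they are the 2 risers with a window that holds the letters of a C/EBP-ATF element, TGATGNAA on either strand. Only 11 of the 16 members that rose have an entry in that table, so the others were not searched. Slc7a7, which did not pass the test, was the only other member with a match. The stretches around these matches are printed to show the letters that both risers share with a member that did not pass, with the match in capitals.

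Slc7a11 (chr3:50443617-50443715, minus strand, bases -102 to -4 from the start site): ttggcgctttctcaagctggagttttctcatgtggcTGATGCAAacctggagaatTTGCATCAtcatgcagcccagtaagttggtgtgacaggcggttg

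Slc1a4 (chr11:20332699-20332728, minus strand, bases -15 to 15): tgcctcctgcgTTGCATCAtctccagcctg

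Slc7a7 (chr14:54418042-54418121, minus strand, bases -177 to -98): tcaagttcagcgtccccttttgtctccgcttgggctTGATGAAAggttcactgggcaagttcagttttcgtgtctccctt

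Slc7a7 (chr14:54417927-54417956, minus strand, bases -12 to 18): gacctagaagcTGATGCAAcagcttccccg

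Slc7a11 carries 2 copies in opposite orientation, TGATGCAA at -66 and TTGCATCA at -47, and the Slc1a4 copy lies across the start site. The Slc7a7 copy at -1, TGATGCAA, has the same letters as the risers' copies, and the one at -141 is TGATGAAA. Counted from another annotated start site of Slc7a7, the copy at -1 lies at -243. The letters occur in 3.97% of all 32851 promoter windows and in 2.83% of the 9545 tested genes with a window, and 2 of 11 risers, 0 of 3 members that fell and 1 of 7 that did not pass hold them. The antioxidant response element, TGACNNNGC on either strand, was found in 3 of 11 risers (Slc38a2, Slc6a9 and Slc7a1) and in 16.9% of tested genes. It was also in 1 of 3 members that fell (Slc36a1) and 1 of 7 that did not pass (Slc7a6). The E-box CACGTG was found in 2 of 11 risers (Slc1a7 and Slc38a7) and in 11.6% of tested genes. It was also in 1 of 3 members that fell (Slc36a1) and 2 of 7 that did not pass (Slc6a3 and Slc7a14). These matches describe the letters in short windows, and the absence of a match elsewhere does not bear on binding, since elements can lie in introns or further away.

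Of the 38 members, 28 passed the count filter and were tested, and 16 were higher and 5 lower in cells from AngII-infused mice by edgeR's quasi-likelihood test, with Benjamini-Hochberg adjustment over all 12277 tested genes and a threshold of 0.05. Very many genes changed in this series: 57.6% of all tested genes passed, 29.0% as higher and 28.6% as lower, so the members' 57.1% higher is to be read against 29.0%, and their 17.9% lower against 28.6%. The difference in size was wider. Of the 28 tested members 10 rose at least 1.5-fold, against 4.47% of all tested genes, and 6 rose at least 2-fold, against 1.33%. No member fell that far (0 of 28, against 5.85% of all tested genes at 1.5-fold and 2.60% at 2-fold). When the fold change itself was tested against 1.5 (glmTreat in edgeR), 7 members passed as higher, against 2.05% of all tested genes, and 0 as lower, against 2.90%. The AngII and saline samples did not overlap in 16 tested members with higher AngII values and 5 with lower ones (Slc36a1, Slc38a4, Slc6a3, Slc6a6 and Slc6a8), against 31.3% and 31.4% of all tested genes. Each of these counts of higher members holds Slc1a1, and each but the glmTreat count holds Slc1a7. Both had under 10 counts in each saline sample, and they passed the count filter only through the AngII samples, where they are high. Their calls are therefore no support for these shares. With at least 5 CPM in 3 samples, 13 of 23 members were higher and 5 lower, beside 3175 and 3215 of all 10140 tested genes. The median log2 fold change was 0.39 over the 28 tested members and 0.00 over all 12277 tested genes. The interquartile range ran from -0.14 to 0.84 over these members and from -0.19 to 0.19 over all tested genes. The members' median and range also take in Slc1a1 (1.92) and Slc1a7 (1.32), and were not computed without them. The plot of log2 fold changes by role shows that the rises were spread over several families while the falls were small.

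**Figure D1:**
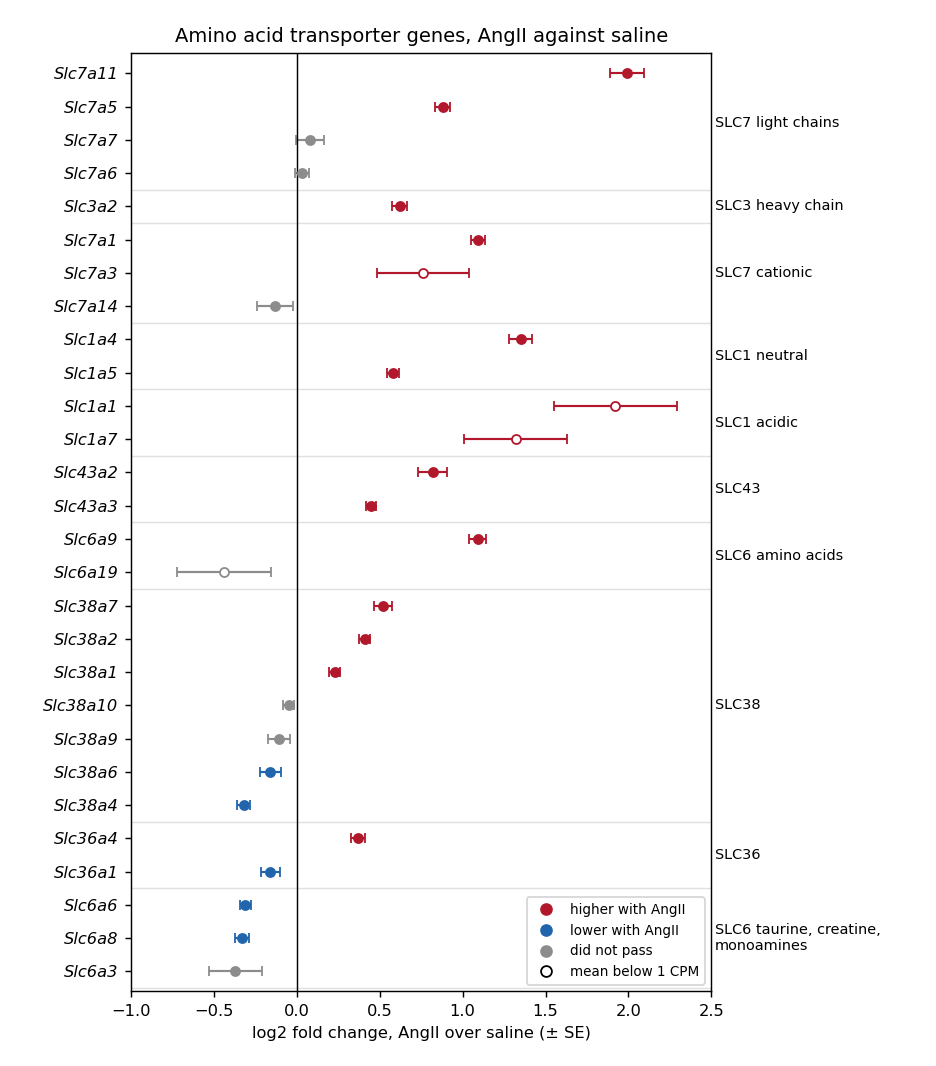
The log2 fold change (AngII over saline, with its standard error) of each of the 28 tested members, grouped by role. Slc7a11 at 1.99 lies furthest right, and no member lies further left than Slc6a19 at -0.44, which did not pass.

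Total counts were 22646065 to 25141992 in AngII samples and 21154724 to 23004780 in saline samples. Values are CPM, each gene's count scaled to the TMM-adjusted library size. The endothelial markers Pecam1 and Cdh5 averaged 1919 ± 93.4 and 1384 ± 72.6 CPM in AngII samples, against 1846 ± 19.3 and 1195 ± 30.3 CPM in saline samples (SD, n = 3), both abundant as the label implies. Of 13 tested endothelial markers 4 were higher (30.8%) and 7 lower (53.8%), against 29.0% and 28.6% of all tested genes. Higher were Kdr (log2 fold change 0.28), Cdh5 (0.21), Nos3 (0.20) and Tek (0.16). Lower were Robo4 (-0.64), Vwf (-0.40), Emcn (-0.31), Eng (-0.30), Esam (-0.20), Erg (-0.15) and Tie1 (-0.08), while Pecam1 and Egfl7 did not pass. The 13 summed to 6762 to 7391 CPM in AngII samples and 7136 to 7197 CPM in saline samples, with none at 0. Markers of other cells were low. The summed level of 10 smooth muscle and pericyte markers was 7.68 to 9.38 CPM in AngII samples and 16.2 to 17.9 CPM in saline samples. Of the 10, 6 were below 1 CPM throughout, including Acta2, Tagln and Cnn1. Of the 4 tested, 3 were lower: Des (log2 fold change -3.31), Myh11 (-2.35) and Notch3 (-1.97). Notch3 averaged 2.29 CPM in AngII samples and 8.97 CPM in saline samples. Pdgfrb, at 5.64 CPM in AngII samples and 5.01 CPM in saline samples, did not pass. The sum of 7 fibroblast markers was 18.7 to 21.5 CPM in AngII samples and 10.8 to 12.0 CPM in saline samples. Col1a1, Col1a2, Dcn and Lum were below 1 CPM throughout. The 3 tested fibroblast markers were all higher: Col3a1 (log2 fold change 1.27), Pdgfra (0.66) and Pi16 (0.51). Col3a1 averaged 8.27 CPM in AngII samples and 3.43 CPM in saline samples. The sum of 9 mesothelial and epithelial markers was 2.18 to 2.76 CPM in AngII samples and 4.28 to 5.11 CPM in saline samples, with 7 of the 9 below 1 CPM throughout. That of 3 adipocyte markers was 16.0 to 20.2 CPM in AngII samples and 8.62 to 10.4 CPM in saline samples, of which Fabp4 and Pparg are also made by endothelial cells. Leukocyte markers summed to 265 to 281 CPM in AngII samples and 272 to 276 CPM in saline samples, almost all of it Cd68, with Ptprc below 1 CPM. These sums moved with the groups in the mural, fibroblast, mesothelial and adipocyte lists, and their part in the results was not tested. In bulk RNA, fewer cells of a type and less RNA per cell cannot be told apart.

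Among the light chains, the cystine carrier and the main carrier of large neutral amino acids rose, and both light chains that exchange cationic for neutral amino acids did not pass. Slc7a11 (chromosome 3, 49892526 to 50443614, GRCm38), which imports cystine in exchange for glutamate and so feeds glutathione synthesis, had 72.9, 84.1 and 106 CPM in AngII samples 1 to 3, against 22.2, 20.6 and 23.5 CPM in saline samples 1 to 3. The lowest AngII sample lay above the highest saline sample by a wide margin, and AngII sample 3 stood highest. The gene was 3.97-fold higher (log2 fold change 1.99 ± 0.102, SE; edgeR adjusted p = 1.1e-11), ranked 14 of 12277 tested genes from the highest log2 fold change, and stayed between 1.82 and 2.11 when each sample was left out in turn.

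Slc7a5 (chromosome 8, 121881150 to 121907694), which brings in leucine and other large neutral amino acids, had 63.7, 67.3 and 68.7 CPM in AngII samples, against 33.8, 37.1 and 37.2 CPM in saline samples. The groups did not overlap, and the difference was 1.84-fold (log2 fold change 0.88 ± 0.0465; edgeR adjusted p = 1.6e-11). Slc7a6, which exchanges arginine for glutamine, had 64.6, 66.6 and 70.7 CPM in AngII samples and 68.2, 63.8 and 66.1 CPM in saline samples, so its groups overlapped (log2 fold change 0.03 ± 0.0412; edgeR adjusted p = 0.582). Slc7a7, its relative, averaged 10.1 ± 0.607 CPM in AngII samples and 9.54 ± 0.706 CPM in saline samples (SD, n = 3; log2 fold change 0.08 ± 0.0861; edgeR adjusted p = 0.465). Part of its exons, 7.00%, overlap Oxa1l on the other strand, and the strand setting of the counting is not given in the sources used here. Oxa1l was more abundant than Slc7a7 and lower with AngII. It averaged 47.4 ± 1.81 CPM in AngII samples and 56.9 ± 2.44 CPM in saline samples (log2 fold change -0.26). Whether its reads enter the Slc7a7 count was not tested.

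The shared heavy chain rose as well. Slc3a2 (chromosome 19, 8706882 to 8723369) had 312, 338 and 366 CPM in AngII samples, against 216, 211 and 232 CPM in saline samples. All AngII samples were above all saline samples, and the difference was 1.54-fold (log2 fold change 0.62 ± 0.0468; edgeR adjusted p = 2.1e-09). It did not pass a test against a fold change of 1.5 (glmTreat in edgeR, adjusted p = 0.935). Slc3a1, the heavy chain of kidney and gut, stayed at 0.280 to 0.712 CPM in AngII samples and 0.130 to 0.282 CPM in saline samples and was not tested.

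Levels of different genes were compared as CPM per kilobase of annotated exon. On that scale Slc3a2 stood at 96.0 ± 7.56 in AngII samples and 62.3 ± 3.12 in saline samples, and the 4 light chains together at 42.0 ± 2.37 in AngII samples and 28.6 ± 0.518 in saline samples (SD, n = 3). The ratio of heavy chain to light chains was 2.22, 2.29 and 2.33 in AngII samples, against 2.13, 2.13 and 2.26 in saline samples, which overlap. The makeup of the light chains differed more. Slc7a11 held 14.9% ± 2.03 of the light-chain level in AngII samples and 5.54% ± 0.265 in saline samples, Slc7a5 held 42.8% ± 1.01 in AngII samples and 34.0% ± 1.97 in saline samples, and Slc7a6 held 35.1% ± 0.415 in AngII samples and 50.4% ± 1.35 in saline samples. With the median transcript length in place of all annotated exon, the Slc7a11 share was 13.4% ± 1.84 in AngII samples and 4.95% ± 0.242 in saline samples. These are descriptions of summed levels and were not tested.

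**Figure D2:**
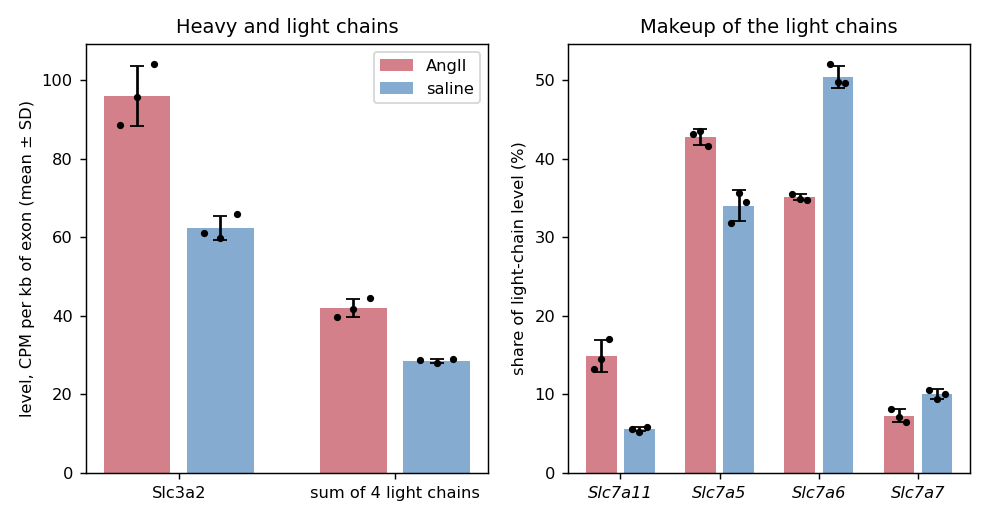
Left, the level of Slc3a2 and the summed level of Slc7a5, Slc7a6, Slc7a7 and Slc7a11 in CPM per kilobase of exon; right, each light chain's share of that sum in percent (bars, mean ± SD; points, samples; n = 3). Slc7a6 holds the largest share in saline samples (50.4%) and Slc7a5 the largest in AngII samples (42.8%).

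The arginine carrier of endothelial cells rose and the other cationic carriers were scarce. Slc7a1 (chromosome 5, 148327410 to 148399904), the arginine and lysine carrier, had 463, 484 and 533 CPM in AngII samples, against 226, 232 and 238 CPM in saline samples. The groups were far apart, with a 2.13-fold difference (log2 fold change 1.09 ± 0.0423; edgeR adjusted p = 2.9e-13). Slc7a3, a cationic carrier known from the nervous system, was near the detection limit at 1.05 ± 0.146 CPM in AngII samples and 0.621 ± 0.126 CPM in saline samples (SD, n = 3; log2 fold change 0.76 ± 0.278; edgeR adjusted p = 0.0255). That call was lost in DESeq2 (adjusted p = 0.104), without AngII replicate 1 (0.0915), without AngII replicate 3 (0.0638) and without saline replicate 3 (0.108). Slc7a14, a lysosomal relative, averaged 5.57 ± 0.506 CPM in AngII samples and 6.10 ± 0.522 CPM in saline samples and did not pass (edgeR adjusted p = 0.316). Slc7a2 had no more than 1 count in any sample.

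Both neutral exchangers of the SLC1 family rose. Slc1a4 (chromosome 11, 20302180 to 20332713), which exchanges serine, alanine, cysteine and threonine, had 46.1, 51.5 and 53.2 CPM in AngII samples, against 19.2, 17.8 and 21.9 CPM in saline samples. Every AngII sample was more than double every saline sample, and the difference was 2.56-fold (log2 fold change 1.35 ± 0.0689; edgeR adjusted p = 9.8e-12). Slc1a5 (chromosome 7, 16781340 to 16798274), a glutamine exchanger, had 137, 135 and 141 CPM in AngII samples, against 90.4, 92.9 and 93.2 CPM in saline samples. It rose in all samples by a smaller step, 1.49-fold (log2 fold change 0.58 ± 0.0334; edgeR adjusted p = 5.1e-11).

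The acidic carriers of the same family were scarce, and Slc1a1 and Slc1a7 passed the count filter only through the AngII samples. Slc1a1, which takes up glutamate and cysteine, had 0.798, 1.25 and 0.920 CPM in AngII samples and 0.141, 0.272 and 0.347 CPM in saline samples (70 and 17 counts in all), a log2 fold change of 1.92 ± 0.370 (edgeR adjusted p = 2.2e-04). A share of 31.9% of its exons overlaps a gene on the other strand, and without strand in the counting the reads of both genes cannot be told apart. Slc1a7, a glutamate carrier of the retina, averaged 0.988 ± 0.189 CPM in AngII samples and 0.392 ± 0.0159 CPM in saline samples (SD, n = 3; edgeR adjusted p = 0.00139). Slc1a2, the main glutamate carrier of astrocytes, had 5 counts or fewer in each sample and was not tested.

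**Figure D3:**
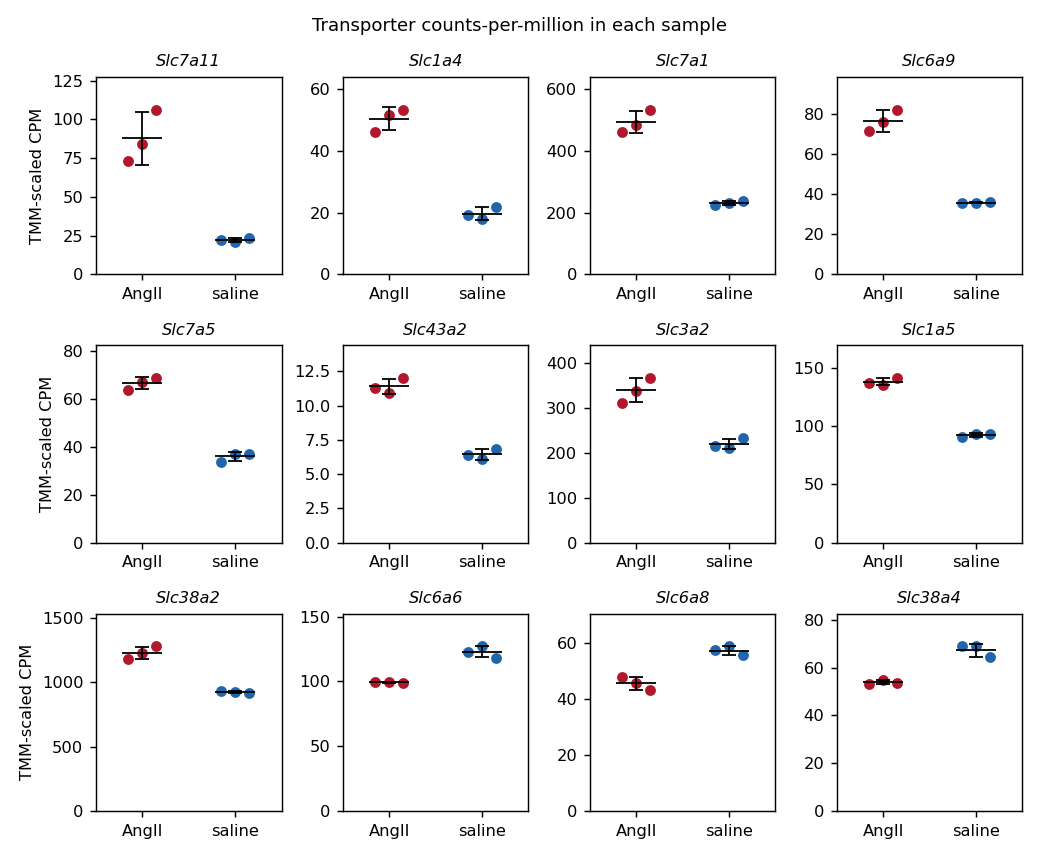
TMM-scaled CPM of 12 members in each sample (points), with the mean and SD of each group (n = 3; axes start at 0). In the first 9 panels every AngII sample lies above every saline sample, and in the panels of Slc6a6, Slc6a8 and Slc38a4 every AngII sample lies below.

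System L carriers of family 43 work without a heavy chain. Slc43a2 (chromosome 11, 75531694 to 75577575), which lets branched-chain amino acids, phenylalanine and methionine pass down their gradient, had 11.3, 10.9 and 12.0 CPM in AngII samples, against 6.40, 6.08 and 6.85 CPM in saline samples. The groups did not overlap, with a 1.77-fold difference (log2 fold change 0.82 ± 0.0876; edgeR adjusted p = 2.2e-07). An antisense gene overlaps 9.18% of its exons. Slc43a3 (chromosome 2, 84936579 to 84958509), whose human relative is described as a carrier of purine nucleobases, not of amino acids, had 323, 329 and 319 CPM in AngII samples, against 239.7, 232 and 239 CPM in saline samples (1.37-fold; log2 fold change 0.45 ± 0.0301; edgeR adjusted p = 4.5e-10). Slc43a1 had 13 counts or fewer in each sample and was not tested.

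Of the 5 tested SLC6 genes, 1 was higher, 2 were lower and 2 did not pass. Slc6a9 (chromosome 4, 117834506 to 117875198), a glycine carrier driven by sodium and chloride, had 71.4, 76.1 and 82.1 CPM in AngII samples, against 35.8, 35.6 and 36.2 CPM in saline samples. The saline samples were almost identical and far below all AngII samples, a 2.13-fold difference (log2 fold change 1.09 ± 0.0488; edgeR adjusted p = 1.7e-12). Ccdc24 on the other strand overlaps 27.8% of its exons but was far less abundant, with 2.74 ± 0.505 CPM in AngII samples and 2.63 ± 0.399 CPM in saline samples (SD, n = 3). Gm17114 and B4galt2, also on the other strand, overlap 9.94% and 0.895% of the Slc6a9 exons. B4galt2 was itself higher, with 37.9 ± 1.17 CPM in AngII samples and 29.1 ± 0.945 CPM in saline samples (log2 fold change 0.38). Whether reads of these genes enter the Slc6a9 count was not tested.

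The carriers of taurine and creatine, which are not used for protein synthesis, were lower. Slc6a6, the taurine carrier, had 99.4, 99.2 and 98.9 CPM in AngII samples, against 123, 127 and 118 CPM in saline samples, 1.24-fold lower (log2 fold change -0.31 ± 0.0345; edgeR adjusted p = 4.5e-07). Slc6a8, the creatine carrier, averaged 45.5 ± 2.25 CPM in AngII samples and 57.1 ± 1.56 CPM in saline samples (SD, n = 3; log2 fold change -0.33 ± 0.0443; edgeR adjusted p = 4.3e-06). Slc6a3, the dopamine carrier of neurons, was at 1.87 to 2.06 CPM in AngII samples and 2.40 to 2.72 CPM in saline samples and did not pass (edgeR adjusted p = 0.0589). Slc6a19, a neutral carrier of gut and kidney, averaged 0.750 ± 0.222 CPM in AngII samples and 1.03 ± 0.184 CPM in saline samples and did not pass either (edgeR adjusted p = 0.196). Slc6a2, Slc6a4, Slc6a12 and Slc6a18 had 8 counts or fewer in each sample and were not tested.

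Family 38, the sodium-coupled neutral carriers, held the member with the highest CPM and went both ways. Slc38a2 (chromosome 15, 96687392 to 96699730), which concentrates alanine, serine and glutamine and is a classic gene induced by amino acid shortage, had 1185, 1230.1 and 1279 CPM in AngII samples, against 932, 927 and 915 CPM in saline samples. The groups did not overlap, and the difference was 1.33-fold (log2 fold change 0.41 ± 0.0337; edgeR adjusted p = 6.3e-09). Slc38a1, a close relative, averaged 199 ± 5.43 CPM in AngII samples and 170.4 ± 4.82 CPM in saline samples (SD, n = 3; log2 fold change 0.23 ± 0.0332), and Slc38a7, which releases glutamine and asparagine from lysosomes, averaged 30.6 ± 0.432 CPM in AngII samples and 21.4 ± 0.320 CPM in saline samples (1.43-fold; edgeR adjusted p = 1.3e-07).

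Slc38a4, another neutral carrier of this family, was lower, with 53.3, 54.8 and 53.5 CPM in AngII samples, against 68.8, 68.8 and 64.2 CPM in saline samples (1.25-fold lower; log2 fold change -0.32 ± 0.0397; edgeR adjusted p = 1.7e-06). Slc38a6 was called lower (log2 fold change -0.16 ± 0.0616; edgeR adjusted p = 0.0327), but its groups overlapped at 63.7 to 71.8 CPM in AngII samples and 65.1 to 80.1 CPM in saline samples. Slc38a9, the lysosomal arginine sensor of the kinase mTORC1, had 22.2, 26.0 and 22.3 CPM in AngII samples and 25.5, 26.7 and 24.1 CPM in saline samples (log2 fold change -0.11 ± 0.0668; edgeR adjusted p = 0.154), and passed as lower only without AngII replicate 2 (adjusted p = 0.0235). Slc38a10 averaged 93.5 ± 2.45 CPM in AngII samples and 96.7 ± 1.49 CPM in saline samples and did not pass (edgeR adjusted p = 0.248). Slc38a3, a glutamine carrier of liver and brain, had 3 counts or fewer in each sample.

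The carriers of family 36 moved apart. Slc36a4, which carries proline and tryptophan, averaged 61.1 ± 2.14 CPM in AngII samples and 47.4 ± 1.38 CPM in saline samples (SD, n = 3; 1.29-fold; log2 fold change 0.37 ± 0.0417; edgeR adjusted p = 4.9e-07). Slc36a1, a lysosomal carrier of small neutral amino acids, had 29.9, 30.1 and 28.3 CPM in AngII samples and 34.9, 33.3 and 30.4 CPM in saline samples (log2 fold change -0.16 ± 0.0575; edgeR adjusted p = 0.0258). Its AngII and saline samples only just did not overlap. The calls of Slc36a1 and Slc38a6 were the weakest: both were lost in DESeq2 (adjusted p = 0.0587 and 0.191), without AngII replicate 3 (0.0771 and 0.0674), without saline replicate 1 (0.136 and 0.189) and without saline replicate 2 (0.0720 and 0.154), and that of Slc38a6 also without AngII replicate 2 (0.125). The count of members that fell is therefore 3, not 5, in DESeq2 and without any of AngII replicate 3, saline replicate 1 and saline replicate 2.

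Ordered by level per kilobase of exon, the same genes led in both groups. Slc38a2 came first with 139 ± 5.30 CPM per kilobase in AngII samples and 105 ± 0.965 in saline samples, then Slc3a2, then Slc43a3 with 72.5 ± 1.17 in AngII samples and 53.1 ± 0.899 in saline samples (SD, n = 3). Slc7a1 was at rank 4 in AngII samples with 42.8 ± 3.13, above Slc1a5 at 33.0 ± 0.726. In saline samples the order was turned, with Slc7a1 at 20.1 ± 0.508 and Slc1a5 at 22.1 ± 0.379. Slc7a5 was at rank 6 in AngII samples and 12 in saline samples, Slc6a9 at 7 in AngII and 15 in saline samples, and Slc1a4 at 10 in AngII and 18 in saline samples. In AngII samples Slc6a9 (14.9 ± 1.05), Slc7a6 (14.7 ± 0.675) and Slc38a10 (14.6 ± 0.382) did not differ beyond their spread. Slc7a11, for all its change, was at rank 18 of 38 in AngII samples and 20 in saline samples, and its annotated exons add up to 13.9 kb, which lowers its value on this scale. All these ranks depend on the length used. The median transcript length is 5388 bases for Slc38a2, 812 for Slc3a2 and 639.5 for Slc43a3. With that length in place of all annotated exon, Slc38a2 would not come first in either group.

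**Figure D4:**
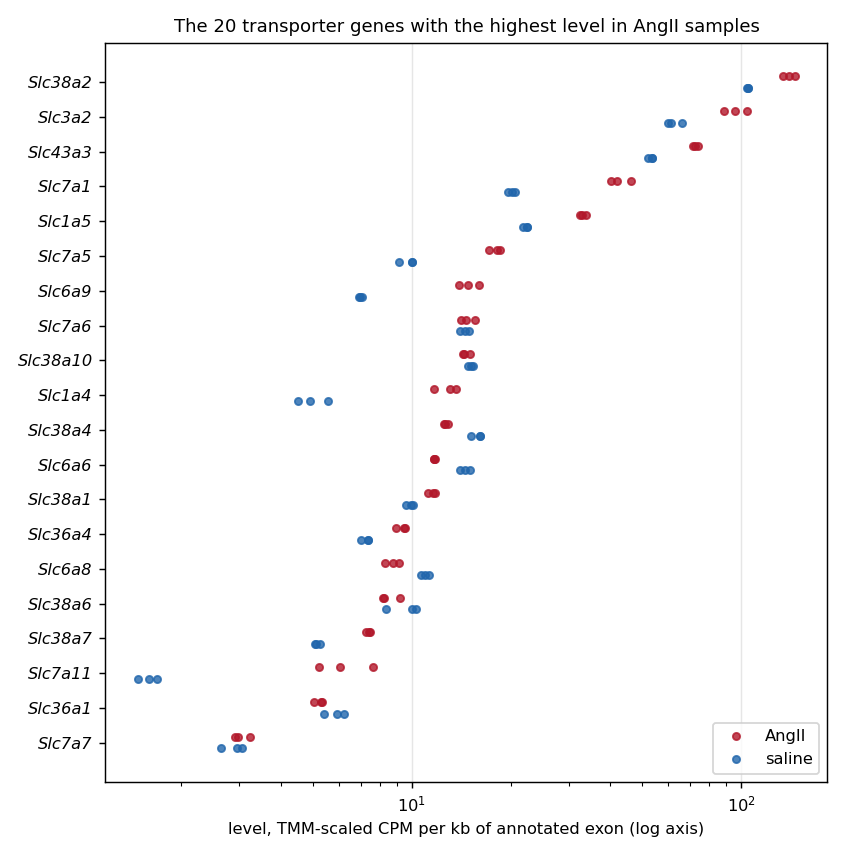
Level of the 20 members with the highest mean in AngII samples, in TMM-scaled CPM per kilobase of annotated exon on a log axis (points, samples; AngII above saline for each gene). Slc38a2, Slc3a2 and Slc43a3 lead in both groups, and Slc7a11 and Slc1a4 show the widest gaps between the groups.

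Summed over all 38 members, this level was 529, 547 and 567 CPM per kilobase in AngII samples, against 402, 399 and 402 in saline samples, a ratio of 1.37. The sum of family 7 was 85.6 ± 5.45 in AngII samples and 49.5 ± 0.784 in saline samples, and that of family 1 was 46.2 ± 1.37 in AngII samples and 27.3 ± 0.741 in saline samples (SD, n = 3). Family 6 summed to 36.1 ± 0.625 in AngII samples and 33.5 ± 0.803 in saline samples. The share of family 38 in the sum was 35.7% ± 0.382 in AngII samples and 40.3% ± 0.826 in saline samples, and that of family 7 was 15.6% ± 0.459 in AngII samples and 12.4% ± 0.179 in saline samples. Without Slc38a2, the ratio of the sums was 1.38. The family sums and shares were computed only per kilobase of all annotated exon, and they depend on that choice of length.

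One AngII sample stood highest in most of the risers. AngII replicate 3 was the highest AngII sample in 11 of the 16 members that rose, where it was highest in 43.1% of all genes that rose. Saline replicate 3 was likewise the highest saline sample in 10 of the 16, against 38.5% of all genes that rose. Replicate 3 of each group was also the highest for the stress genes Asns, Trib3, Chac1, Ddit3 and Atf4, described next, while for Nupr1 AngII replicate 2 was the highest, with 95.2 CPM, and AngII replicate 3 had 94.0 CPM. Atf4 had 425, 456 and 489 CPM in AngII samples 1 to 3, against 271, 267 and 291 CPM in saline samples 1 to 3, and Ddit3 had 27.7, 33.7 and 35.8 CPM in AngII samples, against 14.9, 15.9 and 18.5 CPM in saline samples. Whether the regulators' level bears on the transporters' was not tested. Over the 23 members with at least 5 CPM the median coefficient of variation was 4.58% in AngII samples and 3.50% in saline samples, and over the 10083 tested genes above that level it was 3.65% in AngII samples and 3.38% in saline samples.

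**Figure D5:**
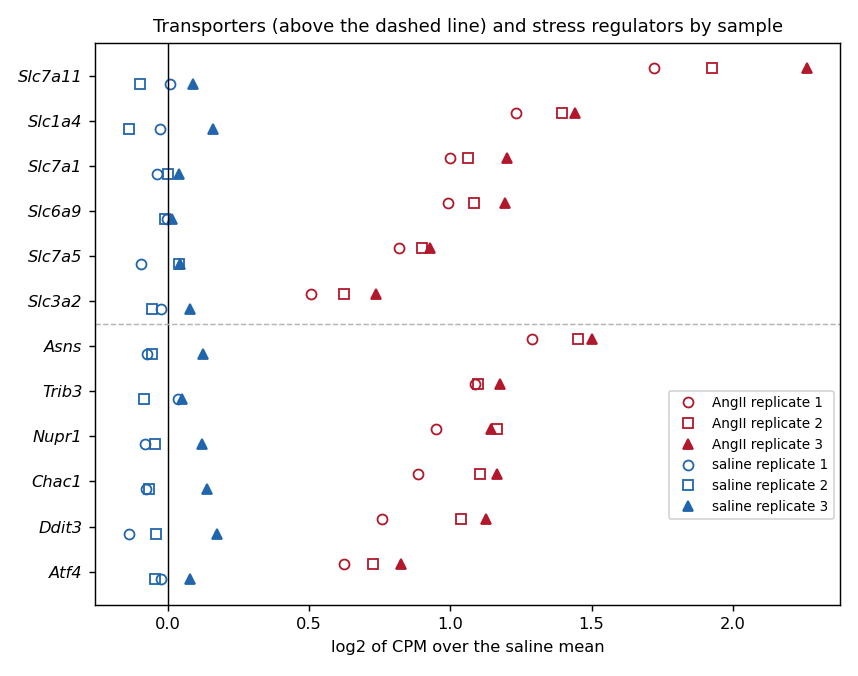
Log2 of each sample's CPM over the mean of the saline samples for 6 transporters (above the dashed line) and 6 stress genes (below it); symbols mark the replicate number. AngII replicate 3 (filled triangle) lies furthest right for each gene but Nupr1, and saline replicate 3 is the highest saline sample for each of them.

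Regulators of transporter genes were listed with their counts for comparison. Of 24 tested regulators 15 were higher and 7 lower, with a median log2 fold change of 0.29, and their 62.5% higher and 29.2% lower compare with 29.0% and 28.6% of all tested genes. The list also holds the enzymes Asns and Chac1, which are targets of ATF4. Without them, a choice made once the values were known, 13 of 22 were higher (59.1%) and 7 lower (31.8%). Atf4 averaged 456 ± 31.9 CPM in AngII samples and 276 ± 12.9 CPM in saline samples (SD, n = 3; log2 fold change 0.73 ± 0.0438; edgeR adjusted p = 1.1e-10). Its target Asns, the asparagine synthetase, differed by 1.42 on the log2 scale, the pseudokinase Trib3 by 1.12, the chromatin-associated stress gene Nupr1 by 1.09, and Ddit3, which encodes the stress factor CHOP, by 0.98. Myc, which induces several amino acid carriers in growing cells, rose by 0.65, and Eif2ak4, the kinase that senses uncharged transfer RNA, by 0.16. Cebpb (-0.92), a partner of ATF4, Nfe2l2 (-0.21), which encodes the oxidant-responsive factor NRF2 that also induces Slc7a11, and Trp53 (-0.19) were lower.

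In the list from cystine to glutathione 4 of 15 tested genes were higher (26.7%) and 6 lower (40.0%), against 29.0% and 28.6% of all tested genes, with a median log2 fold change of -0.03. Chac1, which breaks down glutathione and is an ATF4 target, averaged 129.6 ± 13.2 CPM in AngII samples and 62.3 ± 5.42 CPM in saline samples (SD, n = 3), Abcc1, an exporter of glutathione conjugates, was higher by 0.36 on the log2 scale, and Chac2 by 0.22. Gclc, the catalytic subunit of the first enzyme of glutathione synthesis, averaged 65.7 ± 3.21 CPM in AngII samples and 93.7 ± 1.15 CPM in saline samples (log2 fold change -0.51), and Gss, the enzyme of the second step, changed by -0.69 and the lipid peroxidase Gpx4 by -0.25.

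Of 16 tested genes in a list of amino acid carriers of other families, 1 was higher (6.25%) and 7 lower (43.8%), against 29.0% and 28.6% of all tested genes, with a median log2 fold change of -0.10. The list also holds Slc7a6os, which is not a carrier, Slc22a5, a carnitine carrier, and Slc17a5. Without these 3, a choice made once the values were known, 1 of 13 was higher (7.69%) and 6 lower (46.2%). The lysosomal carriers Ctns, which exports cystine, Slc66a1, which exports cationic amino acids, and Slc17a5, which exports sialic acid, changed by -0.48, -0.79 and -0.50, and Slc25a12, the mitochondrial aspartate and glutamate carrier, rose by 0.18.

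Of 34 tested genes of lysosomal amino acid sensing, 13 were higher (38.2%) and 6 lower (17.6%), with a median log2 fold change of 0.01, against 29.0% and 28.6% of all tested genes. Lars, the leucyl-tRNA synthetase, rose by 0.91, the Ragulator scaffold gene Lamtor1 by 0.36 and the mTORC1 activator Rheb by 0.24, while Lamtor4 (-0.62), Flcn (-0.27) and Mlst8 (-0.25) fell. Of 20 tested genes of transporter traffic and turnover, 7 were higher (35.0%) and 8 lower (40.0%), against 29.0% and 28.6% of all tested genes (median log2 fold change -0.05). The ubiquitin ligase Itch (0.33), the kinase Sgk1 (0.35), which stabilises carriers at the membrane, and the autophagy receptor Sqstm1 (0.26) rose, while the arrestin-like Txnip (-0.64) and Arrdc1 (-0.57), and Arl6ip5 (-0.38), which restrains the carrier of Slc1a1, fell.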

How the data were processed

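Polyadenylated RNA of 6 cell samples was sequenced from strand-specific dUTP libraries, per the labels' protocols. The authors deposited 1 table of expected counts (estimated counts per gene, 83.0% of them whole numbers, not scaled to library size). HISAT2 and the build mm10 are named in the submitters' processing notes. The quantifier, annotation and strand setting are not given in the sources used here, and reads shared by relatives or overlapping genes are therefore uncertain. Of the members, 11 had fractional values, Slc3a2, Slc38a6 and Slc7a14 in all 6 samples. Of the 10 untested members, 1 is not reported here.

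Counts were rounded to whole numbers and tested over the whole table with edgeR 4.0.16 in R 4.3.3 (filterByExpr at its defaults, TMM, glmQLFTest, no block), which was tested on simulated data. Standard errors are the log2 fold change over the square root of F. The threshold was an adjusted p of 0.05. Lengths and coordinates came from GENCODE M21 (GRCm38, which mm10 names), which held all 38 members, and promoters from RefSeq (GRCm38.p6). Chi-square per degree of freedom between samples of a group was 2.39 to 5.86, more than sampling noise gives, and each sample counted once.

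The members, lists and tests were chosen with earlier results of these data known. Values in every sample were to be given for members that passed with at least 1 CPM and an absolute log2 fold change of at least 0.58, and for 12 members set by name. From each list up to 3 genes that rose and 3 that fell are named, smallest p first among those with at least 1 CPM, beside 7 regulators. Alternatives were median-of-ratios factors, unadjusted library totals, a filter of 1 count in 3 samples, a filter of 5 CPM in 3 samples, DESeq2 1.42.0, glmTreat against 1.5-fold, a replicate block, and leaving out each of the 6 samples.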

Additional observations from a re-analysis of the deposited data

How the results depend on the processing

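The counts of members that rose (16) and fell (5) were the same with median-of-ratios factors, with unadjusted library totals, with a filter of 1 count in 3 samples (38 members tested) and with the replicate block. With at least 5 CPM in 3 samples, 23 members were tested and none of their calls changed. Against a fold change of 1.5 (glmTreat), 608 of all tested genes passed, 252 higher and 356 lower (2.05% and 2.90%), and 7 members passed, all 7 higher: Slc1a1, Slc1a4, Slc43a2, Slc6a9, Slc7a1, Slc7a11 and Slc7a5. Of these, Slc1a1 passed the count filter only through the AngII samples. By glmTreat 0 members passed as lower, and 0 at an unadjusted p under 0.05. DESeq2 called 15 members higher and 3 lower. Leaving out each sample in turn gave 15 to 16 members higher and 3 to 5 lower. Slc7a6, which did not pass, turned to -0.01 without AngII replicate 3 (range -0.01 to 0.06 over the samples left out). The ratio of summed levels stayed between 1.33 and 1.39 under the other scalings, median transcript length, removal of Slc38a2 and removal of each sample, the last chosen after seeing the data. Same-numbered samples deviated from their group means with correlations of 0.08, 0.05 and 0.01. AngII replicates 1 and 2 correlated best with the saline sample of the same number, and AngII replicate 3 with saline replicate 2 (0.08). With 3 samples in each group, these values cannot tell whether the replicate numbers pair the samples. The replicate block moved the count of all genes called to 7204, against 7072 without it, and changed no member's call. Members below about 1 CPM (4 tested) rest on few counts, and the 10 members below the count filter had no more than 16 counts in any sample. None of those 10 passed when tested with a filter of 1 count in 3 samples.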

Other observations

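Slc6a20a and Slc6a20b, carriers of proline and related imino acids, belong to family 6 but end in a letter and so lie outside the rule for members. Both were chosen after their values were seen. Slc6a20a had 3 counts over the AngII samples and 31 over the saline samples, or 0 to 0.0840 CPM in AngII samples and 0.363 to 0.612 CPM in saline samples, and was below the count filter. Slc6a20b averaged 0.408 ± 0.270 CPM in AngII samples and 0.762 ± 0.256 CPM in saline samples (SD, n = 3), overlapped between the groups and did not pass (edgeR adjusted p = 0.0681).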
